A study of Mus musculus with 4 samples.

Results

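Border macrophages of the mouse hippocampus were taken as the barcodes in which transcripts of Mrc1, Pf4 and Ms4a7 together made up at least 8 of every 10000 molecules, those of the complement chains C1qa, C1qb and C1qc at least 20, and those of the endothelial genes Cldn5, Flt1 and Ly6c1 fewer than 40. Of 14147 cells with at least 650 detected genes, 79 met these limits. They came from whole hippocampi of C57BL/6 mice, with 1 library per mouse, taken 7 days after surgery. In the 2VO group both common carotid arteries were clamped for 50 min, and in the sham group the clamps were placed and released at once. The mice carried no transgene and their age is 12 weeks in the sample labels, while the methods of the study give males of 6 to 10 weeks. The values rest on sham 1, sham 2 and 2VO 1; the second 2VO library was not analysed here. Each transcript was counted at its 3′ end with a unique molecular identifier (UMI), and levels are given as UMIs per 10000 UMIs of the summed cells of a library. The labels give no sequencing batch and the study, which speaks of batches, does not say which library belongs to which, so a difference between 2VO 1 and the sham libraries cannot be told apart from a difference between libraries.

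Border macrophages sit along the vessels, in the meninges and in the choroid plexus, where they take up material from blood and cerebrospinal fluid and can present antigen. They share the C1q chains and the receptor Csf1r with microglia, the macrophages of the brain tissue itself, but carry the mannose receptor Mrc1, scavenger receptors such as Cd163 and the lysozyme Lyz2. Within this population, cells with the hyaluronan receptor Lyve1 and cells with MHC class II, the molecules that show peptides to helper T cells, are known as separate states.

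The members were chosen by their measured Mrc1, Pf4, Ms4a7, C1q and endothelial transcripts, so those genes get no test. The 3 libraries differed in depth. Kept cells held 64667950, 39017426 and 17681002 UMIs in sham 1, sham 2 and 2VO 1, and the macrophages had a median of 2595, 4527.5 and 1880.5 UMIs per cell. The remaining cells that met the C1q and endothelial limits but had fewer than 8 molecules per 10000 of Mrc1, Pf4 and Ms4a7 served as the comparison. These other C1q-rich cells numbered 206, 203 and 360, with medians of 4863, 4399 and 1746.5 UMIs. Mitochondrially encoded transcripts took 1.89%, 2.02% and 4.55% of the UMIs of the macrophages. The libraries shared between 12 and 15 barcodes in pairs, and no shared barcode was a macrophage in both. No macrophage was marked as a doublet, although the doublet caller marked only 1 cell of 2VO 1 and so did not work there. In 7 of the 36 macrophages of 2VO 1, and in none of the sham libraries, marker transcripts of other cell types exceeded 200 per 10000.

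Border macrophages were 0.372% of the kept cells of sham 1 (19 of 5109 cells, exact 95% Clopper-Pearson interval 0.224% to 0.580%). In sham 2 they were 0.468% (24 of 5126, 0.300% to 0.696%), and in 2VO 1 they were 0.920% (36 of 3912, 0.645% to 1.27%). The 2VO value was above both sham values, while its interval overlapped that of sham 2. Taken against C1q-rich cells only, the macrophages made up 8.44% of 225, 10.6% of 227 and 9.09% of 396 cells, so the 2VO share then lay between the sham shares. With a limit of 4 instead of 8, the 2VO library gained 8 cells and the sham libraries 1 each, for 20, 25 and 44 macrophages. The intervals cover counting error only, and the 3 ways to pick the 2VO library are too few for a permutation test to pass 0.05, so none was made.

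**Figure D1:**
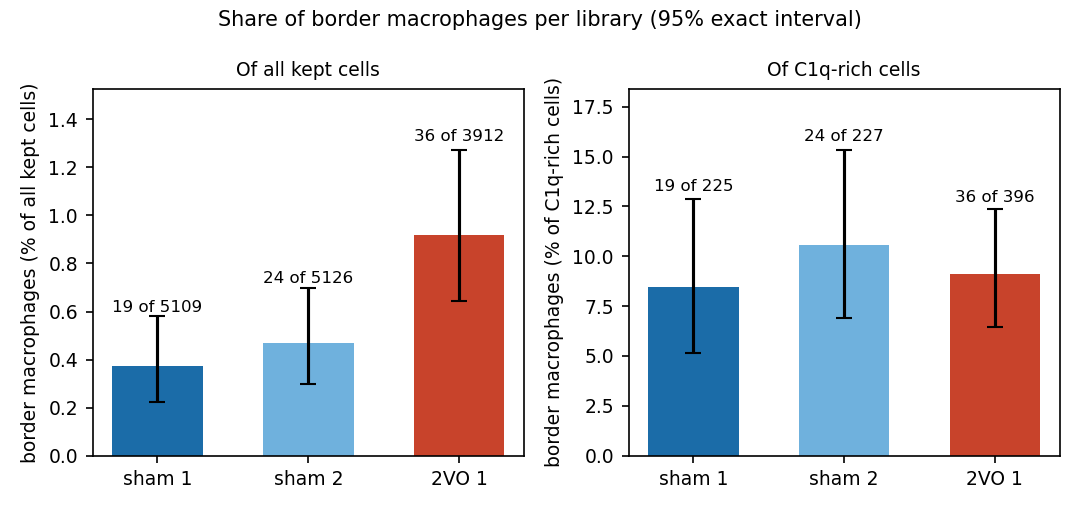
Percent of border macrophages (vertical axis) by library (horizontal axis), among all kept cells on the left and among C1q-rich cells on the right. Each bar is 1 library, with its exact 95% interval; 2VO 1 is highest on the left at 0.920% and lies between the sham libraries on the right at 9.09%.

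The genes that chose the cells are given as a description. Mrc1 (chr2:14229392-14332057, GRCm38, plus strand), the mannose receptor, stood at 18.9, 16.1 and 27.0 UMIs per 10000 in sham 1, sham 2 and 2VO 1. The chemokine Pf4 stood at 55.3, 42.9 and 19.4, and the membrane protein Ms4a7 at 14.01, 10.3 and 7.81. Mrc1 was thus highest in 2VO 1, and the other two were lowest there. The other C1q-rich cells held at most 0.0956 per 10000 of each of these. C1qa was at 76.1, 77.2 and 46.2 in the macrophages and at 74.1, 77.9 and 54.2 in the other cells, so both populations carried it at like levels. The macrophages nearest to the limit held 8.10, 9.26 and 10.7 molecules per 10000 of Mrc1, Pf4 and Ms4a7 together, and the excluded cells nearest to it held 7.91, 6.57 and 6.51.

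The label was checked against markers outside the rule. Lyz2 was at 57.7, 68.5 and 40.7 per 10000 in the macrophages of sham 1, sham 2 and 2VO 1, against 2.18, 1.90 and 7.49 in the other C1q-rich cells. Cd74, the invariant chain of MHC class II, was at 9.44, 46.0 and 25.2 against 1.45, 2.62 and 2.78. In both genes every macrophage sum lay above every sum of the other cells. Lyz2 had a UMI in 94.7%, 95.8% and 94.4% of the macrophages, and in 42.7%, 37.9% and 51.4% of the other cells, at the median depths given above. Cd74 had a UMI in only 36.8%, 50.0% and 33.3% of the macrophages, against 22.3%, 14.8% and 11.1% of the other cells, and 12 macrophages described below carried most of it, so it marks some of these cells and not all 79. Of the markers of blood-derived cells, Ly6c2 and Plac8 of monocytes, S100a9 of neutrophils, Cd3e of T cells and Flt3 of dendritic cells had no UMI in the 79 macrophages. Ccr2, a monocyte chemokine receptor, had 1. The 20 monocyte markers together were not low, however. They summed to 12.1, 10.2 and 13.3 per 10000 against 2.18, 1.50 and 8.84 in the other cells, of which the antiviral membrane protein Ifitm3 alone gave 6.49, 8.19 and 8.05 in the macrophages. Of them, 3 could be tested against the other cells, and all had a log2 fold change above 0 (median 2.99). Ifitm3 and the integrin chain Itga4 were called higher. Single members also resembled the other C1q-rich cells. A member of sham 1 held 4.34 per 10000 of Lyz2 and 312.5 of the 20 homeostatic microglia genes together. The median of that sum was 54.0 in the macrophages and 316 in the other cells of sham 1. A member of 2VO 1 held no Lyz2 UMI and 203.7 of that sum, where the medians were 59.1 and 173. The name of border macrophages was kept for the 79 cells as a set, with these limits.

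**Figure D2:**
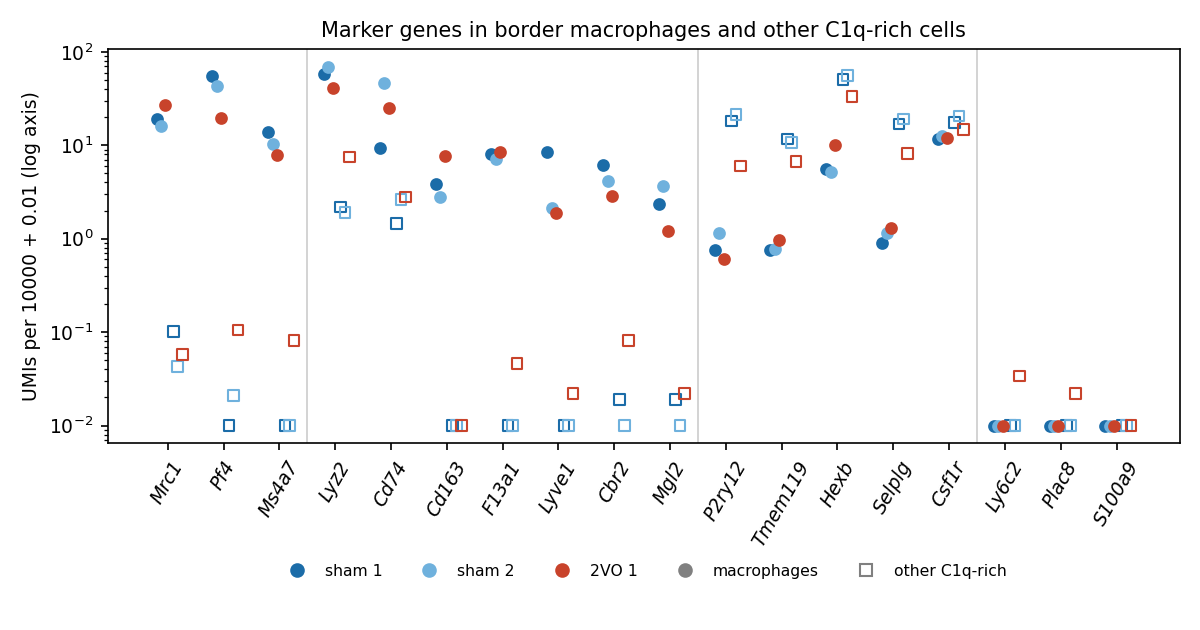
UMIs per 10000 plus 0.01 on a log axis (vertical) of 18 genes (horizontal axis) in border macrophages (filled circles) and other C1q-rich cells (open squares), coloured by library; a point at 0.01 stands for no UMI. From left to right the panels hold rule genes, further macrophage genes, microglia genes and blood-cell genes, and Cd163 is at 0 in all 3 libraries of the other cells.

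Macrophages were then compared with the other C1q-rich cells of the same libraries, with edgeR's quasi-likelihood test on summed counts and the library as a block. Scavenger, lectin and vessel-associated macrophage genes were higher and the homeostatic genes of microglia were lower. Of 6444 genes tested outside the rule, 610 (9.47%) passed a Benjamini-Hochberg adjusted p under 0.05 with a fold over 1.5, of which 337 (5.23%) were higher and 273 (4.24%) lower in the macrophages. The 3 macrophage values lay above the 3 values of the other cells for 9.82% of genes and below them for 12.5%. The rule splits the cells by transcripts that vary together with the rest of their programme, so these calls describe the 2 sets and are not independent evidence that they are separate cell types. DESeq2 called 110 genes lower in place of 273, and without a library block 194 genes were called higher and 98 lower.

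The 12 border macrophage markers outside the rule were all higher, with a median log2 fold change of 5.17 against -0.07 over all tested genes. The haemoglobin scavenger receptor Cd163 (chr6:124304656-124330527, plus strand) was at 3.83, 2.76 and 7.69 per 10000 in sham 1, sham 2 and 2VO 1, and no UMI of it was found in the 769 other cells. Its 120 UMIs against a floor of 3 gave a level at least 442-fold higher. The clotting factor subunit F13a1 was at 7.96, 7.05 and 8.40, against 0, 0 and 0.0358. With 199 UMIs against 3, the ratio was 733 (95% counting interval 247 to 3584). Dab2, an adaptor of endocytosis, was at 16.8, 11.4 and 11.5 against 0.119, 0.121 and 0.358, and 89.5%, 91.7% and 80.6% of the macrophages held it. Its log2 fold change was 6.16 ± 0.40 (SE; edgeR quasi-likelihood test, adjusted p = 1.08e-10).

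Apolipoprotein E, the lipid carrier, gave the highest level of any border marker and had a UMI in every macrophage. Apoe was at 534, 565 and 416 per 10000 in the macrophages and at 22.4, 14.1 and 243 in the other cells. Its log2 difference was 3.78 ± 0.68 (SE, adjusted p = 0.000373 by edgeR's quasi-likelihood test). The gap was thus much narrower in 2VO 1, where the other cells stood higher. Lyz2 differed by 4.17 ± 0.45 (adjusted p = 3.31e-07, edgeR quasi-likelihood test) and Cd74 by 3.39 ± 0.34 (adjusted p = 1.08e-07, same test).

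Of the 13 tested genes of the Lyve1 perivascular set, 11 were higher (median log2 fold change 5.66). Lyve1 (chr7:110850607-110863239, minus strand) was at 8.55, 2.10 and 1.89, against 1 UMI in all other cells, a ratio of 1061 (95% counting interval 186 to 42322). Only 26.3%, 29.2% and 27.8% of the macrophages held a Lyve1 UMI. The folate receptor Folr2 was at 1.62, 2.95 and 1.89 and the carbonyl reductase Cbr2 at 6.19, 4.09 and 2.84, both against at most 0.0717. Gas6, a bridge between dying cells and their receptors, was at 6.93, 5.90 and 4.85 against 0.896, 1.10 and 1.17 (log2 difference 2.51 ± 0.28, adjusted p = 6.48e-07 by edgeR's quasi-likelihood test). The iron exporter Slc40a1 was at 4.72, 0.381 and 2.60, overlapping the other cells, and did not pass (adjusted p = 0.0723).

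Among 15 tested scavenger and lectin receptors 13 were higher, with a median log2 fold change of 6.74. Clec10a and Mgl2, lectins for galactose-type sugars, were at 2.06, 3.14 and 2.96 and at 2.36, 3.62 and 1.18 per 10000, with 2 UMIs each in the other cells. The fatty acid receptor Cd36 was at 1.18, 1.62 and 2.13, also against 2 UMIs. Stab1, which clears modified lipoproteins, was at 10.6, 12.0 and 19.7 against 1.16, 1.39 and 1.33 (log2 difference 3.43 ± 0.30, adjusted p = 1.16e-08 by edgeR's quasi-likelihood test).

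All 20 homeostatic microglia genes had a log2 fold change below 0, and 17 were called lower (median -2.72). P2ry12, the ADP receptor of microglial processes, was at 0.737, 1.14 and 0.592 against 18.1, 21.3 and 5.97 (log2 difference -4.07 ± 0.37, adjusted p = 2.96e-08 by edgeR's quasi-likelihood test). Tmem119 was at 0.737, 0.762 and 0.947 against 11.6, 10.7 and 6.69. The protease inhibitor Cst3, which is not among these 20, was at 95.4, 93.7 and 59.2 against 468, 555 and 215. The macrophages thus held it at a level that was lower in every library but still high. Sparc, a matrix protein, had 24 UMIs in all macrophages against 7171 in the other cells. The 3 members that did not pass include the growth factor receptor Csf1r (11.8, 12.6 and 12.1 against 17.6, 20.6 and 14.7, adjusted p = 0.364) and the Fc receptor-like gene Fcrls (13.9, 10.4 and 12.4 against 18.9, 16.8 and 9.43, adjusted p = 0.782), both by edgeR's quasi-likelihood test.

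**Figure D3:**
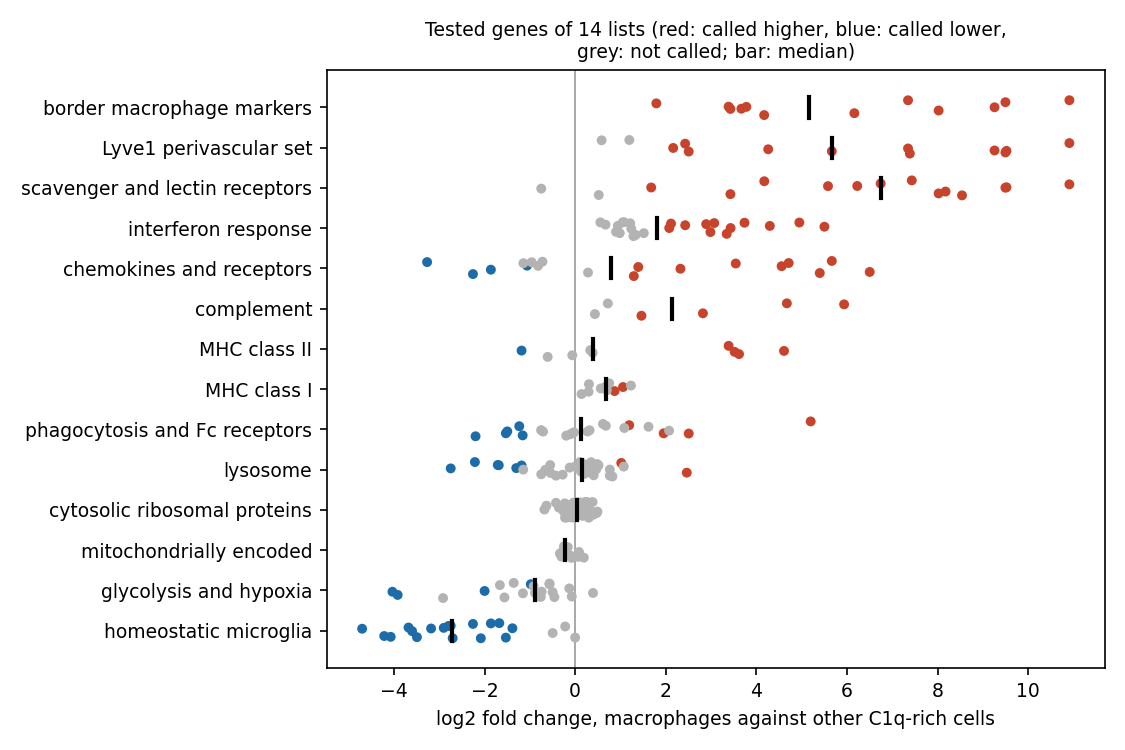
Log2 fold change of macrophages against other C1q-rich cells (horizontal axis) for the tested genes of 14 lists (vertical axis), outside the genes of the rule. Each point is a gene, red when called higher, blue when called lower and grey when not called, and the bar is the median, from 6.74 for scavenger and lectin receptors to -2.72 for homeostatic microglia genes.

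Chemokines went in both directions. Of 18 tested, 9 were higher and 4 lower, with a median log2 fold change of 0.79. Ccl7, which draws monocytes, was at 27.1, 4.86 and 3.43 in the macrophages against 1.17, 0.230 and 0.0717 (log2 difference 4.71 ± 0.33, adjusted p = 3.82e-10 by edgeR's quasi-likelihood test). Ccl24, an eosinophil chemokine, was at 4.57, 2.48 and 4.26 against at most 0.0878, and the neutrophil chemokine Cxcl2 at 23.002, 49.6 and 11.1 against 0.749, 0.845 and 1.76. In contrast, Ccl4 was at 1.18, 3.81 and 3.20 against 58.4, 15.95 and 23.6 (log2 difference -3.27 ± 0.46, adjusted p = 1.48e-05, same test). The related Ccl3 was lower too, with a log2 difference of -1.06 ± 0.29. The cytokine pair split as well: Il1b was at 13.7, 2.19 and 9.47 against 2.10, 0.680 and 4.83 and was called higher, and Il1a was at 0.737, 0.286 and 1.18 against 9.67, 4.68 and 5.37 and was called lower.

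Interferon-response genes were higher in the macrophages at 12 of 24 tested, and all 24 had a log2 fold change above 0 (median 1.80). Ifi27l2a was at 7.08, 12.5 and 11.6 per 10000 against 0.585, 0.263 and 4.22. Bst2, which tethers budding viruses, was at 10.03, 13.05 and 8.64 against 1.98, 1.79 and 4.60. Both genes were higher in all 3 libraries. Ifi203 and Ifi204 also passed, but they belong to a family of near-identical copies whose reads the counting could have divided.

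In other groups single members differed. Of 6 complement genes tested beside the C1q chains 4 were higher, among them properdin, Cfp, with 27 UMIs against 4, and the C5a receptor C5ar1 at 3.24, 1.81 and 1.30 against 1.06, 0.680 and 0.562. The lysosome list had 2 genes higher and 6 lower of 34, and its share of higher calls was near the 5.23% over all genes. Ctsc, the protease that activates serine proteases of leukocytes, was at 13.1, 12.4 and 16.7 against 3.06, 2.31 and 2.43, whereas the aspartic protease Ctsd was at 13.4, 9.90 and 24.1 against 42.5, 37.3 and 71.8. In iron handling 4 of 13 were higher, among them the ferritin light chain Ftl1 at 77.4, 61.9 and 33.4 against 30.1, 19.1 and 17.2. The insulin-like growth factor Igf1 was at 2.51, 1.43 and 1.18 against 0.0457, 0 and 0.418. Of the myeloid transcription factors, Maf was higher by 1.79 on the log2 scale (adjusted p = 9.18e-05, edgeR quasi-likelihood test). None of the 81 ribosomal protein genes, 46 nuclear genes of oxidative phosphorylation or 13 mitochondrial genes was called in this comparison by edgeR's quasi-likelihood test or by DESeq2, and 0 of them had an unadjusted p under 0.05.

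MHC class II transcripts were unevenly spread over the macrophages. The alpha and beta chains H2-Aa, H2-Ab1 and H2-Eb1 are neighbours on chromosome 17 (H2-Aa chr17:34282744-34287823, minus strand; H2-Ab1 chr17:34257689-34269419 and H2-Eb1 chr17:34305867-34316674, plus strand). Their transcription depends on promoter elements called the X and Y boxes. The starts of 2 of them are shown for these elements, from the RefSeq windows of GRCm38.p6, as the 100 bases before the annotated start, read 5′ to 3′ on the strand of the gene. Capitals mark the Y box CTGATTGG and, in H2-Eb1 before it, the X box, searched with any base allowed at the fifth and the ninth of its letters.

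H2-Aa (chr17:34287824-34287923, minus strand): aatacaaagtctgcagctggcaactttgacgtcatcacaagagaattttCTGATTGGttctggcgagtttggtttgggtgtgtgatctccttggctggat

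H2-Eb1 (chr17:34305767-34305866, plus strand): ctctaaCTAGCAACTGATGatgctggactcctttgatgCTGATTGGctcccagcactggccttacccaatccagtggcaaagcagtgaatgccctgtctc

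The Y box began 51 bases before the start of H2-Aa and 62 before that of H2-Eb1, where the X box began 94 bases before the start. Both strands of 32851 windows, each of 250 bases before and 50 after a start, were searched. The Y box was in 1346 (4.10%), this form of the X box in 10 (0.0304%) and both in the 1 window of H2-Eb1. Of 15 MHC class II genes listed 10 were searched. Of these, 4 held the Y box (H2-Aa, H2-Eb1, H2-Eb2 and H2-Oa) and 2 this form of the X box (H2-DMb1 and H2-Eb1). Neither sequence was in the windows of the 12 searched of 15 border macrophage markers, or of the 12 searched of 15 Lyve1 set genes. Cd74 was among the genes not searched, so these counts say nothing of it. A match of letters is no evidence of binding, and a missing match does not show that a box is absent.

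Levels per cell of the 3 chains ranged from 0 to 709 per 10000. In 61 of the 79 macrophages no UMI of them was found, in 12 they made up at least 20 per 10000, and 6 lay between. The cut at 20 was chosen with the values known and meets no wide gap, since the lowest of the high cells held 31.2 and the highest of the low cells 19.1, and 3 of the 19 macrophages of sham 1 lay between 10 and 40. The high cells were 2 of 19 in sham 1, 6 of 24 in sham 2 and 4 of 36 in 2VO 1 (10.5%, 25.0% and 11.1%), so 2VO 1 lay between the sham libraries. Of these 12 cells, 11 held all 3 chains. The summed levels in the macrophages followed these few cells, with H2-Aa at 2.80, 15.2 and 11.6 per 10000 and H2-Ab1 at 2.06, 17.9 and 10.5. Against the other C1q-rich cells (0.155, 0.428 and 0.597 for H2-Aa) the log2 difference of H2-Aa was 4.61 ± 0.34 (adjusted p = 5.83e-10 by edgeR's quasi-likelihood test). When the 12 cells were left out, a choice made after seeing the data, that difference became -1.50, and those of Cd74, H2-Ab1 and H2-Eb1 became -0.09, -0.96 and -1.39.

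None of the 12 MHC class II-high macrophages held a Lyve1 UMI, whereas 22 of the other 67 did (32.8%). A count of 0 of 12 allows a share of cells with a UMI of up to 25.0% (3 of 12) and sets no limit on the share that expresses the gene. Median depth was 2821.5 UMIs in the high cells and 2494 in the rest, but 4140.5 in the macrophages with a Lyve1 UMI, and the part of depth in this was not tested. Folr2 was likewise found in 0 of 12 and 22 of 67. Cd163 had a UMI in 2 of 12 and 41 of 67, F13a1 in 3 of 12 and 51 of 67, and Cbr2 in 2 of 12 and 38 of 67. Mrc1, by contrast, was present in 11 of 12 and 60 of 67, with medians of 6.01 and 19.8 per 10000, and Lyz2 in 12 of 12 and 63 of 67, with medians of 69.4 and 39.4. Cells of 1 library are not replicates, so these shares carry no test.

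**Figure D4:**
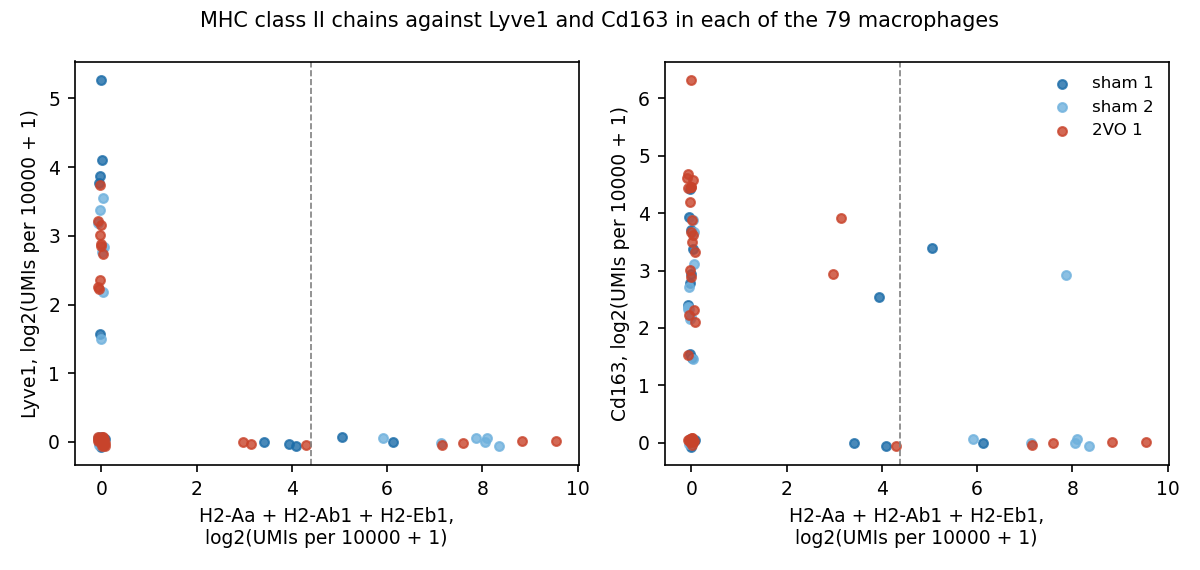
Summed H2-Aa, H2-Ab1 and H2-Eb1 (horizontal axes) against Lyve1 (left) and Cd163 (right) in each of the 79 macrophages, as log2 of UMIs per 10000 plus 1 with a small random offset, coloured by library. The dashed line is the limit of 20 per 10000; no cell to its right holds Lyve1 and 2 hold Cd163.

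Outside Cd74 and the chains H2-Aa, H2-Ab1 and H2-Eb1, no MHC class II gene passed as higher in the macrophages than in the other C1q-rich cells. Whether these further genes varied with the chains from cell to cell was not tested. The peptide loader H2-DMa was at 0.442, 2.19 and 0.474 against 1.86, 2.04 and 0.980 (adjusted p = 0.450, edgeR quasi-likelihood test), and the protease Ctss was lower, at 14.7, 21.3 and 22.0 against 47.5, 44.9 and 40.9 (log2 difference -1.18 ± 0.30, adjusted p = 0.0108, same test). All 11 MHC class I genes had a log2 fold change above 0, with a median of 0.69, and 2 were called higher. These were H2-D1 at 10.03, 15.1 and 14.3 against 5.59, 4.31 and 10.6 and H2-K1 at 7.52, 5.81 and 12.7 against 3.55, 3.37 and 7.93, whose coding sequences are close enough for reads to be shared.

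The response of the macrophages to 2VO was compared next, with the sum of 2VO 1 against the sums of both sham libraries. With edgeR's quasi-likelihood test 0 of 1888 genes outside the rule were called (0%), 217 had an unadjusted p under 0.05, and the smallest adjusted p was 0.399. With 1 residual degree of freedom this count was unstable: DESeq2 called 1 gene, and other settings called up to 68 genes higher and 26 lower. No gene is therefore described as changed. By position alone 2VO 1 lay above both sham values for 762 genes (40.4%) and below both for 702 (37.2%).

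Of the genes with the smallest p, the complement component C4b (chr17:34728380-34743882, minus strand) was at 0.147, 0.667 and 7.58 per 10000 in sham 1, sham 2 and 2VO 1. It had a UMI in 5.26%, 12.5% and 61.1% of the macrophages. In the other C1q-rich cells it was at 0.00914, 0.0878 and 1.14, in 0.485%, 2.46% and 13.6% of cells. The 2VO value was thus the highest in both populations. The log2 difference in the macrophages was 4.03 ± 0.65 (adjusted p = 0.399, edgeR quasi-likelihood test), and its near-identical copy C4a could have shared its reads. The clathrin adaptor Picalm was at 2.95, 3.43 and 9.83 (log2 difference 1.62 ± 0.28) and Cd163 at 3.83, 2.76 and 7.69 (1.25 ± 0.33), neither of them called.

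Transcripts of other cells moved with the 2VO library as well. The prostaglandin synthase Ptgds was at 0.885, 1.14 and 13.7 in the macrophages. The 13 oligodendrocyte markers summed to 14.3, 10.6 and 75.8 per 10000 there and to 92.3, 19.1 and 137 in the other C1q-rich cells. Of the 13, 8, 9 and 13 had a UMI in the macrophages of sham 1, sham 2 and 2VO 1. A gene could be tested by passing the count filter in 2VO 1 alone, so the direction of the tested markers is no separate support. All 11 tested ones had a log2 fold change above 0, with a median of 3.72. That median was 1.15 over 5 tested genes when the 7 macrophages rich in markers of other cells were left out. The difference of C4b was then 4.31. Ttr of the choroid plexus was at 16.2, 16.8 and 46.4 and was found in 100%, 91.7% and 100% of the macrophages. The part of such transcripts in the results was not tested.

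The immediate early genes, which dissociation also induces, tended to be low in 2VO 1. Klf2 was at 27.6, 25.2 and 8.29, Ier2 at 7.23, 7.81 and 2.13 and Cebpb at 21.1, 15.6 and 5.56, none of them called. Over the list, 4 of 27 tested genes had a log2 fold change above 0 and the median was -0.86, against -0.03 over all tested genes. The 13 mitochondrially encoded genes all had a log2 fold change above 0 (median 1.20) and an unadjusted p under 0.05 by edgeR's quasi-likelihood test. Among them mt-Co1 was at 28.2, 29.0 and 72.1. Nuclear genes of oxidative phosphorylation had a median of -0.39 with 7 of 43 above 0, and ribosomal protein genes a median of -0.47 with 5 of 79 above 0. In the other C1q-rich cells these medians were 1.00 for mitochondrial genes, -0.26 for nuclear oxidative genes, -0.28 for ribosomal proteins and -1.02 for immediate early genes, so the same directions were seen there. The comparisons share the 3 libraries.

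Most border macrophage markers had a log2 fold change below 0 in 2VO 1, and none was called. Of the 12 border markers 3 had a log2 fold change above 0 (median -0.29). Lyz2 differed by -0.62 ± 0.32, Apoe by -0.39 ± 0.30, Cd74 by -0.15 ± 1.19 and Lyve1 by -1.41 ± 1.17. For the last 2 the sham libraries were themselves far apart, and the H2-Aa difference of 0.33 was -0.39 without sham 1 and 2.15 without sham 2. The small secreted protein Wfdc17 was at 9.58, 9.71 and 3.08 (log2 difference -1.63 ± 0.30), and the actin regulator Gmfg at 4.42, 5.14 and 0.829 (-2.51 ± 0.37), with an adjusted p of 0.399 by edgeR's quasi-likelihood test for both.

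Whether the 2VO difference was another in the macrophages than in the other C1q-rich cells was tested as an interaction. Of 9019 genes, 22 (0.244%) passed with edgeR's quasi-likelihood test and Benjamini-Hochberg adjustment, 9 higher (0.0998%) and 13 lower (0.144%) in the macrophages relative to the other cells. DESeq2 called none of these 22 and only Apoe, and the test had 1 residual degree of freedom. An interaction is the log2 difference of 2VO 1 from sham in the macrophages minus that in the other cells. All 13 lower genes had UMIs in the macrophages of both sham libraries.

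Interferon-response genes led the lower group with 4 of 29 tested in that list, and 26 of the 29 had an interaction below 0 (median -2.18, against -0.02 over all genes). A gene could be tested here by passing the count filter in 1 sum only, such as that of the other cells of 2VO 1. Genes high there are thus favoured, and the count below 0 is no separate support. The tests of 2VO 1 against sham within each cell set have the same limit. Ifi27l2a was at 7.08, 12.5 and 11.6 in the macrophages, where 2VO 1 lay between the sham libraries, whereas in the other cells it was at 0.585, 0.263 and 4.22. The interaction was -3.21 ± 0.61 on the log2 scale (adjusted p = 0.000321, edgeR quasi-likelihood test). Ifitm3 behaved alike, with 6.49, 8.19 and 8.05 against 0.420, 0.527 and 3.60, and an interaction of -2.92 ± 0.58 (adjusted p = 0.000814, same test). Slfn5 was at 1.77, 1.43 and 1.42 against 0.0640, 0.0329 and 0.609, and Oasl2 at 1.33, 1.05 and 0.710 against 0.0183, 0.0110 and 0.358. In each of these 4 genes the macrophages of 2VO 1 still held more than the other cells of 2VO 1. The whole list had a median of -0.05 in the macrophages (15 tested, 0 called by edgeR or DESeq2 and 1 with an unadjusted p under 0.05) and of 1.54 in the other cells (27 tested, 26 above 0, with Ifi27l2a and Ifitm3 called), where 52 of 9910 genes (0.525%) were called higher and 8 (0.0807%) lower.

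Some markers of macrophages and monocytes were higher in 2VO 1 in the other cells too. The border macrophage markers, those of the rule included, summed there to 32.9, 24.7 and 258 per 10000, of which Apoe gave 22.4, 14.1 and 243, while Cd163 was at 0, 0 and 0 and F13a1 at 0, 0 and 0.0358. Of the 7 tested outside the rule, 4 had a log2 fold change above 0 (median 0.27) and only Apoe was called higher. The monocyte markers summed to 2.18, 1.50 and 8.84 in the other cells. All 7 tested had a log2 fold change above 0 (median 2.74). Called higher were 3, namely the matrix genes Vcan and Fn1 and Ifitm3, which also stands in the interferon list. Passing the count filter in 2VO 1 alone sufficed here too, so the direction of the tested markers is no separate support. Ly6c2, Plac8 and Ccr2 were at 0.0239, 0.0119 and 0.0358 in the other cells of 2VO 1. Without the other cells that held any UMI of Mrc1, Pf4 or Ms4a7, 11 of the 13 lower interaction genes were still called. Cxcl1 (adjusted p = 0.0569, edgeR quasi-likelihood test) and Cd209f were not. Cells with none of those UMIs stayed in, so the part of macrophages and monocytes among the other cells in the interaction was not tested.

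Genes outside the interferon list showed further forms of the difference. Wfdc17 was lower in 2VO 1 in the macrophages and higher in the other cells (0.0274, 0.0329 and 0.215), with an interaction of -4.52 ± 0.81 (adjusted p = 9.88e-05, edgeR quasi-likelihood test). Igf1 was at 2.51, 1.43 and 1.18 in the macrophages against 0.0457, 0 and 0.418, with an interaction of -4.88 ± 0.90 (adjusted p = 0.000217, same test). The chemokine Cxcl2 was at 23.002, 49.6 and 11.1 against 0.749, 0.845 and 1.76 (-2.88 ± 0.68, adjusted p = 0.0125, same test). Apoe itself had an interaction of -4.31 ± 1.17 and missed the threshold with edgeR's quasi-likelihood test (adjusted p = 0.0699). Lyz2, like Apoe, was highest in 2VO 1 among the other cells (2.18, 1.90 and 7.49) and lowest there among the macrophages, and its interaction was -2.64 ± 0.73 (adjusted p = 0.0861, same test).

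**Figure D5:**
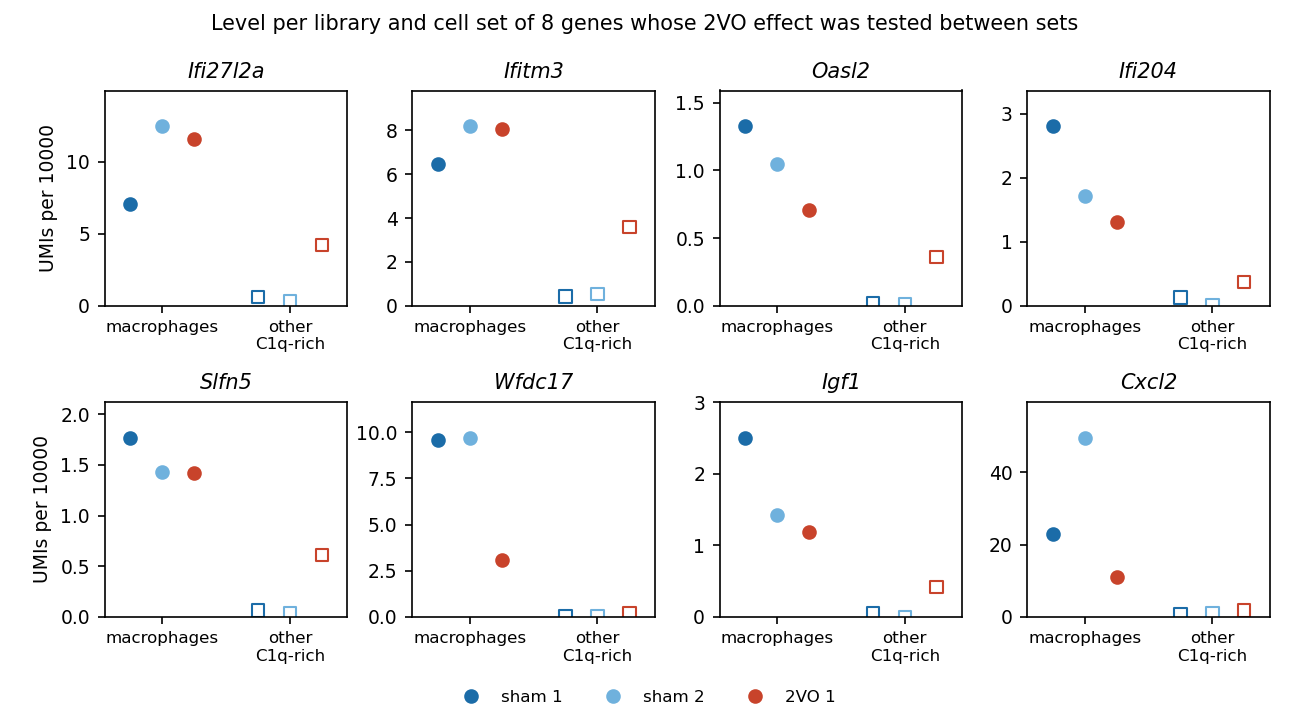
UMIs per 10000 (vertical axes, from 0) of 8 genes called in the interaction, in border macrophages (filled circles) and other C1q-rich cells (open squares), 1 point per library. For Ifi27l2a and Ifitm3 the macrophage point of 2VO 1 lies between those of the sham libraries, while the other cells of 2VO 1 lie above those of both sham libraries.

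The 9 genes higher in the macrophages relative to the other cells were low in the sham macrophages. Vtn, a marker of mural cells, was at 0, 0.0952 and 5.56 in the macrophages, from 4 cells of 2VO 1, and at 0.0914, 2.05 and 1.42 in the other cells. The tetraspanin Cd9 was at 0, 0.381 and 3.08 against 15.6, 12.2 and 11.4, and Sparc at 0.590, 0 and 2.37 against 30.9, 28.7 and 14.1. The stress-regulated kinase Sgk1 was at 0.737, 0.476 and 2.72 against 17.2, 18.8 and 6.48 (interaction 3.55 ± 0.81, adjusted p = 0.00732, edgeR quasi-likelihood test). When the 7 macrophages rich in markers of other cells were left out, 3 genes in place of 9 were called higher, and Ptn, a growth factor of glia and vessels, turned from 2.82 to -0.77. Vtn could then not be tested, and Cd9 (adjusted p = 0.722) and Sparc (0.658) no longer passed by edgeR's quasi-likelihood test. Sgk1 still passed (0.0186, same test).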

How the data were processed

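Single-cell RNA libraries of hippocampus (10x 3′ chemistry) were aligned by the authors with Cell Ranger 3.1.0, and they deposited UMI counts per gene and barcode; Seurat 3.2.2 and the build mm10 (GRCm38) stand in the submitters' processing notes. How cells were called before deposit is not given in the sources used here. Barcodes with at least 650 genes were kept. Counts of 31053 genes were summed per library and cell set, and tested with edgeR 4.0.16 (quasi-likelihood test, TMM factors, filterByExpr, Benjamini-Hochberg adjustment over all genes, call at adjusted p under 0.05 and fold over 1.5), with DESeq2 1.42.0 as an alternative. The study tested single cells with a rank test, while sums were used here because cells are not replicates. The scripts were tested on simulated data with an assumed spread between sums. Of 50 genes changed 2-fold there, 8 were recovered for 2VO 1 against sham and 1 for the interaction, so most changes of that size were missed. For macrophages against the other cells 25 of 50 were recovered. The 9 genes of the rule were left untested. Named genes are those called with the smallest p among genes with at least 50 counts and no overlap of groups, the leading genes of the 40 lists and the 5 marker genes; which of them are printed was decided with their values known, and a few others were chosen after their values were seen. A few genes are not reported here, though they stand in the counts. The members and lists were chosen with earlier results of these data known. Libraries come from separate mice but also differed in depth and in their mitochondrial share. Their sequencing batches are not given in the sources used here, so part of the spread between them may be technical. With the library as a block, p-values of macrophages against the other cells measure how evenly their difference held over the 3 libraries. Those of 2VO 1 against sham rest on the spread between the 2 sham libraries. Those of the interaction rest on how far the cell set difference varied between these 2. No spread among 2VO mice was measured. Intervals and limits cover counting error only. Gene positions are from GENCODE vM21 and promoter windows from RefSeq. Alternatives were other factors, no count filter, other limits of the rule, doublets removed with Scrublet, members rich in other markers left out, thinning and leaving out libraries.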

Additional observations from a re-analysis of the deposited data

Results flagged for a closer look

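Of the 22 genes whose difference between 2VO 1 and sham was another in the macrophages than in the other C1q-rich cells, 21 are given here for a closer look, each with the adjusted p of its interaction (edgeR quasi-likelihood test). Lower in the macrophages relative to the other cells were Ifi27l2a (0.000321), Ifitm3 (0.000814), Slfn5 (0.00106), Slfn2 (0.00407), Oasl2 (0.00407) and Ifi204 (0.0098) of the interferon-induced and Schlafen genes. Also lower were Wfdc17 (9.88e-05), Igf1 (0.000217), Cd209f (0.00102), Egfl7 (0.00154), Cxcl2 (0.0125), Cxcl1 (0.0293) and Gadd45g (0.0149). Higher were Vtn (3.25e-06), Dusp2 (0.00106), Serpine2 (0.00701), Sgk1 (0.00732), Sparc (0.00885), Cd9 (0.0098), Tjp1 (0.0118) and Ptn (0.0257). Dusp2 and Tjp1 had no UMI in the sham macrophages, so their fitted differences depend on the prior count and are no bound.

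Over the 9 alternatives tested with edgeR, Ifi27l2a (adjusted p from 7.65e-09 to 0.00356) and Sgk1 (5.76e-05 to 0.0186) passed in all 9, and Dusp2 and Oasl2 in all 8 in which they could be tested. Ifitm3, Slfn5, Slfn2, Igf1, Wfdc17 and Ifi204 missed the threshold in 1 alternative each, the one in which all sums were thinned to the smallest. Without the macrophages rich in markers of other cells, Cd9 (0.722), Sparc (0.658), Serpine2 (0.990) and Ptn (0.933) missed it, and Vtn could not be tested. Egfl7 (0.882) and Gadd45g (0.284) of the lower genes missed it there too, while Dusp2, Sgk1 and Tjp1 still passed. Vtn also missed it with doublets removed (0.150). Cd209f had an adjusted p of 1 in 3 alternatives, among them the one in which other cells with any UMI of Mrc1, Pf4 or Ms4a7 were left out. Its 8 UMIs in the other cells came from 1 cell. With DESeq2 the adjusted p of all 22 lay between 0.627 and 1.00.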

How the results depend on the processing

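Over 72 named genes and 15 alternatives, the difference of macrophages from the other C1q-rich cells gave 1065 values. Of these, 1010 kept their direction and side of the threshold, 51 were no longer past it and 4 reversed. The 4 were Cd74 (-0.090), H2-Aa (-1.50), H2-Ab1 (-0.96) and H2-Eb1 (-1.39), without the 12 MHC class II-high macrophages. The 72 genes were named in part for a small p in this same comparison, so these counts do not speak for all genes called. Genes called higher were 109 in place of 337 after thinning all sums to the smallest and 194 without a library block, and those called lower 101 in place of 273 after thinning, 98 without a block and 110 with DESeq2. Without 1 library at a time, 236 to 337 were called higher and 171 to 324 lower, the 171 without sham 2.

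The comparison of 2VO 1 with sham in the macrophages called 0 genes in either direction, and its counts were unstable. Higher and lower calls were 68 and 11 with no filter on low counts, 20 and 11 with at least 16 molecules of the rule, 61 and 5 with at least 200 genes per cell, 68 and 26 without the MHC class II-high macrophages, and 1 and 0 with DESeq2. In the interaction, 9 genes called higher became 0 with DESeq2, 4 with at least 16, 14 with at least 200 genes and 3 without macrophages rich in markers of other cells, where Ptn reversed to -0.77. The 13 called lower became 1 with DESeq2 and 4 after thinning. The causes were not tested. Shares of members were 8.44%, 10.6% and 9.09% of C1q-rich cells, a smaller denominator.

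Leaving out a sham library leaves no residual degree of freedom for 2VO against sham and for the interaction, so those are values with no test. No paired analysis was possible because sham and 2VO share only replicate number 1 among the libraries analysed. The macrophage sums held 67819, 105007 and 84474 UMIs, which limits the precision for genes of few UMIs.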
